A study of Mus musculus with 8 samples.

Results

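The genes described here are 10 genes grouped as macrophage repair and growth factor genes, *Igf1*, *Hbegf*, *Pdgfb*, *Pdgfc*, *Vegfa*, *Vegfb*, *Tgfb1*, *Tgfbi*, *Grn*, and *Nrp1*, the last for a coreceptor. They were chosen by symbol, and each matched 1 of the 54146 gene rows in the counts. All 10 were expressed highly enough to be tested. Bulk RNA-Seq had been performed on macrophages from the epididymal white adipose tissue (eWAT) of 4 C57Bl6 mice, with 1 library of FCGR4+ and 1 of FCGR4- cells per mouse, for 8 libraries in all. FCGR4 is an activating receptor for IgG. All 4 mice had received a high fat diet for 24 weeks, with food then cut by 30% for 2 weeks, so that diet and restriction are shared by both populations and no unrestricted mouse is included. The labels name no other allele or agent. Both populations were sorted as CD45+, CD11b+ cells negative for CD3, B220, Ly6G, and SiglecF, a gate without a macrophage-specific antigen.

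Macrophages secrete factors that act on neighboring stromal, vascular, and epithelial cells when a tissue is repaired or remodeled. IGF1 and the EGF receptor ligand HB-EGF promote cell growth and survival, PDGFs act on fibroblasts and pericytes, and VEGFA drives the growth and permeability of blood vessels. TGF-β1 is secreted in a latent form that must be activated, and it induces matrix genes, among them *Tgfbi*. Progranulin, the product of *Grn*, is secreted but also serves the lysosome, and neuropilin 1, the product of *Nrp1*, is a coreceptor for VEGF and class 3 semaphorins. In adipose tissue such factors are associated with vessel growth and matrix turnover as fat depots expand and shrink.

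The libraries held between 35992794 and 66856746 counts, and 3 counts corresponded to between 0.0439 and 0.0882 normalized CPM (read counts relative to the total, scaled by library size and TMM factor). *Fcgr4*, the gene of the sorted protein, had a level of 199 ± 42.4 normalized CPM (SD, n = 4 mice) in the FCGR4+ libraries, against 66.1 ± 18.3 (SD, n = 4) in the others, a log2 fold change of 1.61 (SE 0.173, Benjamini-Hochberg adjusted P = 0.0162 in the edgeR quasi-likelihood test). Macrophage markers were present in every library, with a summed level of 31987 to 56788 CPM in FCGR4+ and 25986 to 50139 CPM in FCGR4- libraries. In 4 of 4 mice the FCGR4+ library had the higher sum, as it had the higher level for 9 of the 21 markers singly. *Lyz2*, for lysozyme, alone gave 16750.3 to 39790.3 CPM of it in FCGR4+ libraries, and 15 of the 21 had a log2 fold change above 0 (median 0.13), while *Csf1r* was at -0.21, *Cd14* at -0.42, and *Cd9* at -0.51. The summed level of adipocyte markers, 2718 to 5734 CPM in FCGR4+ and 1607 to 4724 CPM in FCGR4- libraries, consisted mostly of *Lpl*, the 1 of 11 markers that was higher in 4 of 4 mice, while 4 of the 11 had a log2 fold change above 0 (median -0.22). *Adipoq*, a defining adipocyte gene, was at 0.67 to 4.10 CPM in FCGR4+ and 0.82 to 1.57 CPM in FCGR4- libraries. Markers of other cells differed between the populations. The summed level of 13 mast cell and basophil genes was 15.1 to 31.5 CPM in FCGR4+ and 397 to 2190 CPM in FCGR4- libraries, and 10 of the 12 tested were called lower at the threshold used throughout, an adjusted P value under 0.1, where 1.19% of all tested genes were called lower and 0.0819% higher. That of 16 fibroblast and preadipocyte genes was 692 to 1123 CPM in FCGR4+ and 976 to 2631 CPM in FCGR4- libraries, and 9 of the 16 tested were called lower. Called lower were also 5 of 13 dendritic cell, 7 of 13 T and NK cell, 4 of 8 B and plasma cell, 5 of 9 neutrophil, 2 of 10 classical monocyte, and 1 of 9 mesothelial markers, and 0 of 11 endothelial, 0 of 11 adipocyte, and 0 of 8 smooth muscle and pericyte markers passed. Dendritic cell genes summed to 208 to 419 CPM in FCGR4+ and 254 to 386 CPM in FCGR4- libraries. For T and NK cell genes the sums were 74.3 to 175 and 68.6 to 225 CPM. Counting mice whose FCGR4+ sum exceeded the FCGR4- sum gave 2 of 4 for each of these lists. That count was 1 for the classical monocyte and mesothelial lists and 0 for the B and plasma cell and neutrophil lists. Of 12 nonclassical monocyte markers 2 were called higher and 1 lower, and of 21 macrophage markers 1, *Cd163*, was called lower. *Cd8a*, *Xcr1*, *Tie1*, and *Krt8* were among the markers at 0 in at least 1 library, while no macrophage or fibroblast marker was. In bulk libraries, fewer cells of a type and less RNA per cell cannot be told apart, and the part of these cells in the differences below was not tested.

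The 10 genes covered a wide range of levels. Compared per kilobase of the deposited gene length, *Grn* was highest, at a mean of 705 CPM per kb over the 8 libraries, followed by *Tgfbi* at 210 CPM per kb. *Nrp1* and *Igf1* followed at 20.4 and 20.1 CPM per kb. *Vegfa* was at 9.28, *Vegfb* at 7.08, and *Pdgfc* at 2.82 CPM per kb. The lowest levels were those of *Tgfb1* at 1.90, *Pdgfb* at 1.62, and *Hbegf* at 1.06 CPM per kb. *Grn* was above *Tgfbi* and *Tgfbi* above *Nrp1* in 8 of 8 libraries, and *Vegfb* was above *Pdgfc* in 8 of 8. Other neighbors changed places between libraries, as the order held for *Nrp1* and *Igf1* in 5 of 8, *Igf1* and *Vegfa* in 6 of 8, *Vegfa* and *Vegfb* in 4 of 8, *Pdgfc* and *Tgfb1* in 7 of 8, *Tgfb1* and *Pdgfb* in 5 of 8, and *Pdgfb* and *Hbegf* in 6 of 8.

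**Figure D1:**
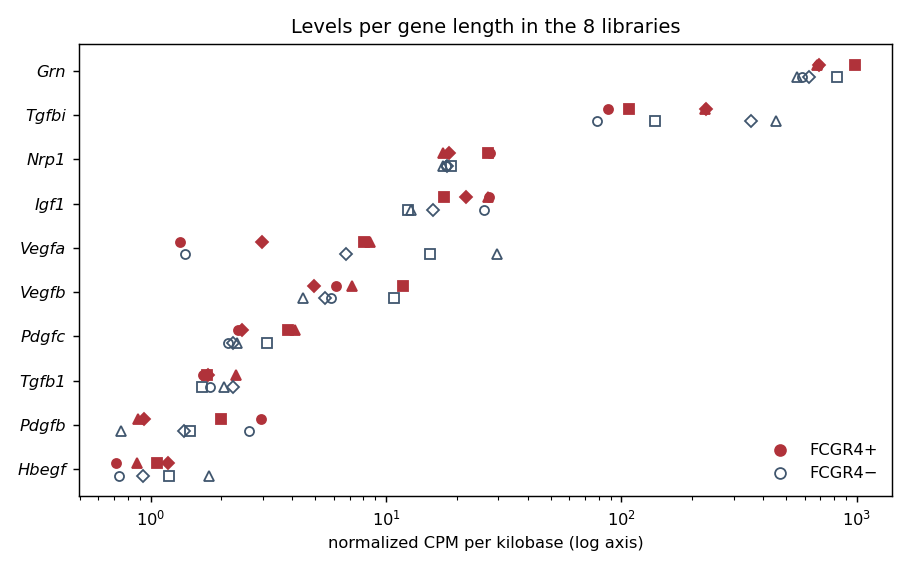
Normalized CPM per kilobase of gene length on a log axis for the 10 genes, with 1 point per library, filled for FCGR4+ and open for FCGR4-, and a different shape for each mouse (circle, square, triangle, and diamond for mice 1 to 4). *Grn* lies above every other gene in all 8 libraries, and the points of *Vegfa* spread from 1.33 to 29.8 CPM per kb.

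None of the 10 genes passed the threshold between FCGR4+ and FCGR4- macrophages (0 of 10 by edgeR's quasi-likelihood test, paired within mouse), where 1.27% of all 17095 tested genes did, 0.0819% with higher and 1.19% with lower expression. At an unadjusted P value under 0.05 there were 2, *Vegfa* and *Igf1*, beside 1671 of the 17095 tested genes. *Vegfa* was the 1 gene of the 10 called by DESeq2, which called 1024 genes in all, by edgeR without a filter on low counts, which called 1054 of 38021, and by edgeR's newer quasi-likelihood method, which called 632. The log2 fold change was above 0 for 6 of 10 genes, as for 49.7% of all tested genes, with a median of 0.13 against -0.00 over all tested genes. *Igf1*, *Pdgfc*, and *Grn* were higher in FCGR4+ cells in 4 of 4 mice, as were 8.38% of all tested genes, and *Vegfa* was lower in 4 of 4, as were 10.7%. The summed macrophage markers were also higher in 4 of 4 mice, and their part in the differences of *Igf1*, *Pdgfc*, and *Grn* was not tested. For none of the 10 did the populations separate without overlap, where all FCGR4+ libraries lay above all FCGR4- libraries for 0.907% of tested genes and below them for 3.02%. For 10 of 10 genes the range of the mouse means on the log2 scale was wider than the fitted difference between the populations. The share of all tested genes for which this holds was not computed, so it cannot be read as a trait of the 10.

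**Figure D2:**
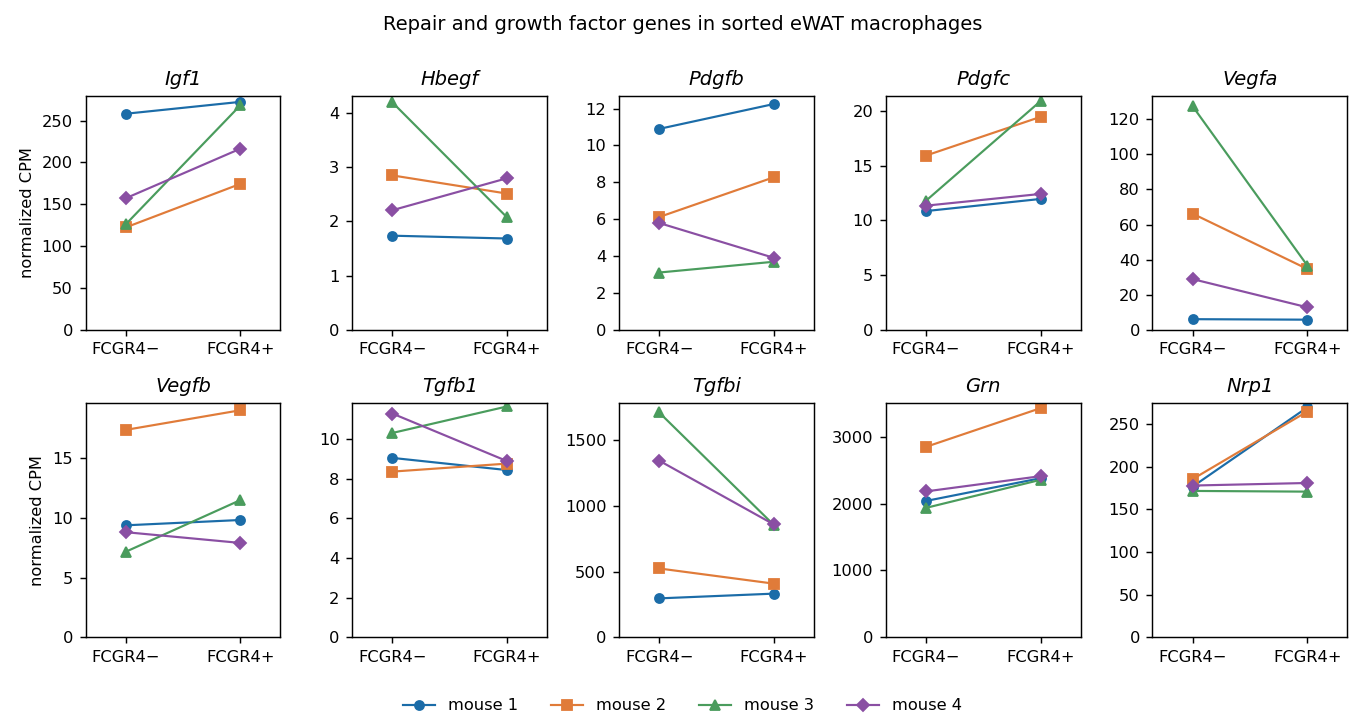
Normalized CPM of the 10 genes in FCGR4- and FCGR4+ macrophages, on linear axes from 0, with 1 line per mouse joining its 2 libraries. The FCGR4+ end of each line is the lower one for *Vegfa* and the higher one for *Igf1*, *Pdgfc*, and *Grn*, and the populations overlap for all 10 genes.

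*Vegfa*, the main growth factor of blood vessels, lies on the minus strand of chromosome 17 of mm10 from 46016993 to 46032369. In FCGR4+ macrophages its level was 5.70, 34.6, 36.6, and 12.8 normalized CPM in mice 1 to 4. In FCGR4- macrophages it was 5.98, 66.2, 128, and 28.9 CPM. Mouse 1 was low in both populations and mouse 3 high in both, and the populations overlapped. The means were 22.4 ± 15.5 and 57.1 ± 53.1 CPM (SD, n = 4 each), and the log2 fold change was -1.01 (SE 0.267, 95% interval -1.64 to -0.38, edgeR quasi-likelihood adjusted P = 0.224). Within mice log2 ratios were -0.07, -0.93, -1.80, and -1.18 in mice 1 to 4. The difference passed with DESeq2 (log2 fold change -1.01, adjusted P = 0.00611), with edgeR and no filter on low counts (-0.99, adjusted P = 0.00153), and with edgeR's newer quasi-likelihood method (-1.05, adjusted P = 0.0878), over alternatives with adjusted P values up to 0.928. Without mouse 3 the log2 fold change was -0.76 and without mouse 1 it was -1.31.

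Since *Vegfa* is a textbook target of the hypoxia-inducible factors, the sequence before its start is shown beside those of *Egln3* and *Adm*, the hypoxia response genes past the threshold. The 250 bases before each start are printed 5′ to 3′ from RefSeq on GRCm38.p6, with capitals for the core of the hypoxia response element, ACGTG or GCGTG on either strand. They are chr17:46032378-46032627 on the minus strand for *Vegfa*, chr12:54203875-54204124 on the minus strand for *Egln3*, and chr7:110627407-110627656 on the plus strand for *Adm*.
Vegfa: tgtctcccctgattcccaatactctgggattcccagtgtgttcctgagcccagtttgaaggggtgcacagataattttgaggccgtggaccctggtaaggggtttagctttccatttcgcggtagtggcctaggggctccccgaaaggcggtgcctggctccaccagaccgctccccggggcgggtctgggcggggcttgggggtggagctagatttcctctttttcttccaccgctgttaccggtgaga
Egln3: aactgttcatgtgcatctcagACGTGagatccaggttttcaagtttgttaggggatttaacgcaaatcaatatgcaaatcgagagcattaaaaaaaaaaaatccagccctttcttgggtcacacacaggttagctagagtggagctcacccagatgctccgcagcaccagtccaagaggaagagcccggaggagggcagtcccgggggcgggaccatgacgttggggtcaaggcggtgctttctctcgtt
Adm: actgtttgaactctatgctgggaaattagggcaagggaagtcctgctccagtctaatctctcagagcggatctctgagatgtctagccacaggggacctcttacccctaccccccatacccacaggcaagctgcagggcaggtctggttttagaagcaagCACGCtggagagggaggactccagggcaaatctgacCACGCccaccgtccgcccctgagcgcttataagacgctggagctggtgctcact
The core was found 0 times before *Vegfa*, 1 time before *Egln3*, and 2 times before *Adm*. A window of this kind, with 50 bases after the start, holds it in 43.8% of 32851 promoters, so a match is common, and a missing match says only that the letters are not in this window. The window at an internal start of *Vegfa* in the same table held 2 matches.

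Of 26 hypoxia response genes, all tested, 2 passed the threshold, both lower in FCGR4+ macrophages, where 1.19% of all tested genes were called lower. The median log2 fold change was -0.32, and 3 of the 26 were above 0. *Egln3*, an oxygen-dependent enzyme that marks hypoxia-inducible factors for degradation, was at 0.893, 8.90, 27.5, and 8.17 CPM in FCGR4+ and 1.84, 28.1, 84.5, and 20.3 CPM in FCGR4- macrophages of mice 1 to 4. Its log2 fold change was -1.43 (SE 0.167, edgeR quasi-likelihood adjusted P = 0.0214), and it passed with each mouse left out in turn. As with *Vegfa*, mouse 1 was lowest and mouse 3 highest in both populations. *Adm*, which encodes the vasodilator peptide adrenomedullin, had a log2 fold change of -2.0 (SE 0.387, edgeR adjusted P = 0.0988), and it passed in 1 of the 4 fits that left out a mouse. The prolyl hydroxylase gene *P4ha2*, for collagen, was at -1.70 and did not pass (edgeR adjusted P = 0.153). *Car9*, for a carbonic anhydrase and named after its values were seen, went the other way without passing, at 0.70 (SE 0.201, edgeR adjusted P = 0.271). Its level was 6.42 to 9.35 CPM in FCGR4+ and 4.55 to 5.12 CPM in FCGR4- libraries, so that all FCGR4+ libraries were above all FCGR4- ones, as for 0.907% of tested genes. The glycolytic genes *Aldoa*, *Eno1*, and *Ldha*, the highest of the list, had log2 fold changes of -0.34, -0.36, and -0.27 and did not pass.

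Among the ligands with a positive difference, *Igf1* stood first. It encodes insulin-like growth factor 1, and the gene lies on the plus strand of chromosome 10 from 87858265 to 87937042. Its level was 273, 174, 268, and 216 CPM in FCGR4+ and 258, 122, 126, and 157 CPM in FCGR4- macrophages of mice 1 to 4. Both populations of mouse 1 were high, so that the groups overlapped, and the widest gap was in mouse 3. The means were 233 ± 46.6 and 166 ± 63.6 CPM (SD, n = 4 each). This gave a log2 fold change of 0.53 (SE 0.182, 95% interval 0.11 to 0.96, edgeR quasi-likelihood adjusted P = 0.380), and without mouse 3 it was 0.33. Of 21 IGF axis partners (receptors, binding proteins, and signal carriers), 12 were tested and 0 passed in either direction (median log2 fold change -0.70). The binding protein gene *Igfbp7* was lower in 4 of 4 mice, at a log2 fold change of -1.47 (edgeR adjusted P = 0.139), as was the receptor gene *Igf1r*, at -1.06 (adjusted P = 0.258). For both genes all FCGR4+ libraries were below all FCGR4- libraries, as for 3.02% of tested genes. *Igfbp4*, the most abundant binding protein gene, was at -0.31 and lower in 3 of 4 mice.

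*Hbegf*, on the minus strand of chromosome 18 from 36504929 to 36515805, was the lowest of the 10. Its level was 1.69, 2.52, 2.07, and 2.80 CPM in FCGR4+ and 1.74, 2.85, 4.20, and 2.21 CPM in FCGR4- macrophages, with at least 97 counts per library. The FCGR4- library of mouse 3 was highest, and the populations overlapped. Its log2 fold change was -0.22 (SE 0.332, 95% interval -1.01 to 0.56, edgeR adjusted P = 0.822), and it turned to 0.025 without mouse 3. Of 25 genes of the EGF family and of shedding, which frees such ligands from the membrane, 20 were tested and 0 passed (median log2 fold change -0.67). *Adam10* and *Adam9*, which encode sheddases, were at 0.29 and 0.14. *Cd9*, which encodes a tetraspanin that associates with membrane-bound HB-EGF, was at -0.51. The receptor gene *Egfr* was lower in 4 of 4 mice, at -2.26, without passing (edgeR adjusted P = 0.153).

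Both PDGF ligand genes had intervals that included 0. *Pdgfb*, on the minus strand of chromosome 15 from 79995874 to 80014977, was at 12.3, 8.27, 3.69, and 3.90 CPM in FCGR4+ and 10.9, 6.11, 3.10, and 5.79 CPM in FCGR4- macrophages. Mice 1 and 2 were higher than mice 3 and 4 in both populations. Between populations the log2 fold change was 0.07 (SE 0.231, 95% interval -0.47 to 0.61, edgeR adjusted P = 0.925), and its sign changed with the processing. *Pdgfc*, on the plus strand of chromosome 3 from 81036416 to 81214040, was at 11.96, 19.5, 20.9, and 12.4 CPM in FCGR4+ and 10.9, 15.9, 11.8, and 11.3 CPM in FCGR4- macrophages. It was higher in FCGR4+ cells of every mouse, most in mouse 3, and the groups overlapped. Its log2 fold change was 0.35 (SE 0.182, 95% interval -0.08 to 0.77, edgeR adjusted P = 0.575), and 0.17 without mouse 3.

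Of 11 other genes of the PDGF family, its receptors, and its activators, 10 were tested and 3 passed, all lower in FCGR4+ macrophages (median log2 fold change -0.85). *Plat*, which encodes tissue plasminogen activator, was at 1.85, 1.10, 3.35, and 1.14 CPM in FCGR4+ and 12.8, 4.44, 19.4, and 8.22 CPM in FCGR4- libraries. Its log2 fold change was -2.55 (SE 0.232, edgeR quasi-likelihood adjusted P = 0.00823), and it passed with each mouse left out. The receptor gene *Pdgfrb* was at 0.933 to 1.48 CPM in FCGR4+ and 3.85 to 8.67 CPM in FCGR4- libraries, at a log2 fold change of -2.32 (edgeR adjusted P = 0.0366). *Pdgfra*, for the other receptor, was at 1.11 to 1.85 and 2.68 to 17.5 CPM, at -2.22 (edgeR adjusted P = 0.0900). The populations did not overlap for these 3 genes, as all FCGR4+ libraries lay below all FCGR4- libraries for 3.02% of tested genes. *Pdgfrb* passed in 2 and *Pdgfra* in 1 of the 4 fits that left out a mouse. Both receptor genes also stand in the fibroblast list, whose summed level was lower in FCGR4+ macrophages of 4 of 4 mice.

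*Vegfb*, which encodes a VEGF family member that binds VEGFR1, lies on the minus strand of chromosome 19 from 6982473 to 6987651. It was at 9.82, 19.0, 11.5, and 7.90 CPM in FCGR4+ and 9.38, 17.4, 7.16, and 8.80 CPM in FCGR4- macrophages. Mouse 2 was highest in both. Its log2 fold change was 0.18 (SE 0.194, 95% interval -0.28 to 0.64, edgeR adjusted P = 0.753), and it was -0.0014 without mouse 3.

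*Nrp1*, the coreceptor gene, lies on the plus strand of chromosome 8 from 128358604 to 128503363. Its level was 269, 265, 171, and 181 CPM in FCGR4+ and 177, 185, 172, and 178 CPM in FCGR4- macrophages. The 4 FCGR4- libraries were close together, and the FCGR4+ libraries of mice 1 and 2 were above them, while those of mice 3 and 4 were not. The log2 fold change was 0.28 (SE 0.159, 95% interval -0.09 to 0.66, edgeR adjusted P = 0.595), with log2 ratios of 0.61, 0.51, -0.01, and 0.02 in mice 1 to 4. Mice 1 and 2 carry another animal ID prefix than mice 3 and 4. In mice 1 and 2 alone the log2 fold change of *Nrp1* was 0.56, and in mice 3 and 4 alone it was -0.013. The same values were -0.52 and -1.52 for *Vegfa*, and -0.099 and -0.85 for *Tgfbi*, and none passed the threshold. The interaction of prefix and population was -0.55 for *Nrp1* (edgeR adjusted P = 0.325), -0.97 for *Vegfa* (adjusted P = 0.355), and -0.73 for *Tgfbi* (adjusted P = 0.341). It passed for 0 of 17095 genes by edgeR, with 2355 genes and 3 of the 10 at an unadjusted P value under 0.05. Of 20 VEGF family members and receptors, 18 were tested and 0 passed (median log2 fold change -0.81). *Plxna1* and *Plxnd1*, which encode plexins, were at -0.08 and -0.49, and *Vegfd* was lower in 4 of 4 mice, at -2.02 (edgeR adjusted P = 0.179).

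*Tgfb1* lies on the plus strand of chromosome 7 from 25687002 to 25705077. It was at 8.43, 8.75, 11.6, and 8.88 CPM in FCGR4+ and 9.04, 8.35, 10.3, and 11.3 CPM in FCGR4- macrophages. It varied least between mice of the 10 genes, and the groups overlapped. With a log2 fold change of -0.05 (SE 0.178, 95% interval -0.47 to 0.37, edgeR adjusted P = 0.930), it turned in sign without mouse 4. *Tgfbi*, which encodes a matrix protein induced by TGF-β, lies on the plus strand of chromosome 13 from 56609523 to 56639562. It was at 332, 408, 855, and 859 CPM in FCGR4+ and 296, 524, 1711, and 1345 CPM in FCGR4- macrophages. Mice 3 and 4 were above mice 1 and 2 in both populations. Here the log2 fold change was -0.46 (SE 0.200, 95% interval -0.93 to 0.01, edgeR adjusted P = 0.514), with log2 ratios of 0.17, -0.36, -1.0, and -0.65 in mice 1 to 4, and it was -0.30 without mouse 3.

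Of 25 genes for TGF-β activation and receptors, 23 were tested and 2 passed, both lower in FCGR4+ macrophages (median log2 fold change -0.20). *Mmp9*, which encodes a gelatinase that can release latent TGF-β, was at 4.63, 6.84, 9.88, and 2.30 CPM in FCGR4+ and 17.2, 32.9, 87.7, and 55.5 CPM in FCGR4- libraries. Its log2 fold change was -2.94 (SE 0.439, edgeR quasi-likelihood adjusted P = 0.0516), and it passed with each mouse left out. *Fbn1*, for the microfibril protein fibrillin 1, was at -2.31 (edgeR adjusted P = 0.0999) and passed in 1 of 4 such fits. *Itgb1* and *Itgb5*, for integrin chains, were at 0.08 and 0.12, and *Thbs1*, for an activator of latent TGF-β, at -0.72, and these did not pass. Of 21 TGF-β target genes, all tested, 2 passed, both lower (median log2 fold change -0.55). These were *Ccn1*, a matricellular protein gene, at -1.90 (edgeR adjusted P = 0.0666), and the collagen gene *Col1a2*, at -2.07 (adjusted P = 0.0889), and each passed in 1 of 4 fits that left out a mouse. *Fbn1* and *Col1a2* also belong to the fibroblast list.

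*Grn* lies on the plus strand of chromosome 11 from 102430315 to 102437048. Its level was 2380.5, 3429, 2356, and 2411 CPM in FCGR4+ and 2039.7, 2849, 1936, and 2183 CPM in FCGR4- macrophages. Mouse 2 was highest in both populations, and in each mouse the FCGR4+ library was above the FCGR4- one. The log2 ratios were 0.22, 0.27, 0.28, and 0.14 in mice 1 to 4. The log2 fold change was 0.23 (SE 0.117, 95% interval -0.05 to 0.50, edgeR adjusted P = 0.565). Of 21 progranulin partners, among them lysosomal hydrolases, 20 were tested and 0 passed (median log2 fold change 0.07). *Ctsb*, *Ctsd*, and *Hexa*, for lysosomal enzymes, were higher in FCGR4+ macrophages of 4 of 4 mice, at log2 fold changes of 0.12, 0.06, and 0.19, none past the threshold. *Psap*, which encodes prosaposin, a binding partner of progranulin, was at -0.08.

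The list of other repair factors ascribed to macrophages gave 2 called genes of 31 tested and 35 listed, both lower (median log2 fold change -0.44). Which of the sorted cells held these 2 transcripts was not tested. *Csf1*, for the main growth factor of macrophages, was at 1.36, 2.97, 3.70, and 5.08 CPM in FCGR4+ and 6.92, 11.02, 81.0, and 62.2 CPM in FCGR4- libraries, at a log2 fold change of -3.10 (SE 0.445, edgeR quasi-likelihood adjusted P = 0.0448). It passed in 3 of 4 fits that left out a mouse. The chemokine gene *Cxcl12* was at -1.25 (edgeR adjusted P = 0.0967) and passed in 1 of 4. *C1qa*, for a complement subunit, and *Lgmn*, for the lysosomal protease legumain, were higher in FCGR4+ macrophages of 4 of 4 mice, at 0.64 and 0.33, without passing. *Il10*, for an anti-inflammatory cytokine, was named after its values were seen. Of the genes on this list higher in 4 of 4 mice it had the largest difference, at 0.95 (SE 0.199, edgeR adjusted P = 0.126). It did not pass either, while the authors, who used DESeq2, give it as upregulated in FCGR4+ macrophages. Genes of this list were higher in 4 of 4 mice in 5 cases and lower in 6. *Lif*, for a cytokine of the IL-6 family, was among the latter at 0 to 1.05 CPM in FCGR4+ and 0.446 to 5.68 CPM in FCGR4- libraries, as was *Bmp6*, for a bone morphogenetic protein, at 0 to 0.207 and 0.161 to 0.613 CPM, and neither passed (edgeR adjusted P = 0.176 and 0.349). The abundant *Spp1*, for osteopontin, was at -0.14 and higher in 2 of 4 mice. Of 26 genes induced by cell isolation, all tested, 0 passed (median log2 fold change -0.14), with *Fos* at -0.01 and *Junb* at -0.17. The transcription factor gene *Egr2* had the largest difference in 1 direction in 4 of 4 mice, at -0.66 (SE 0.192, edgeR adjusted P = 0.283), and all its FCGR4+ libraries were below all FCGR4- ones, as for 3.02% of tested genes.

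Across the 10 pathway lists, which hold 226 genes, 202 were tested. In the main edgeR test 11 passed, 0 of them higher in FCGR4+ macrophages and 11 lower. Of all tested genes 1.27% passed, 0.0819% higher and 1.19% lower. The lists that gave no call in this test were those of the IGF axis, the EGF family, the VEGF family, progranulin, and cell isolation. DESeq2 called 43 genes of the pathway lists, and their directions are not reported here.

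**Figure D3:**
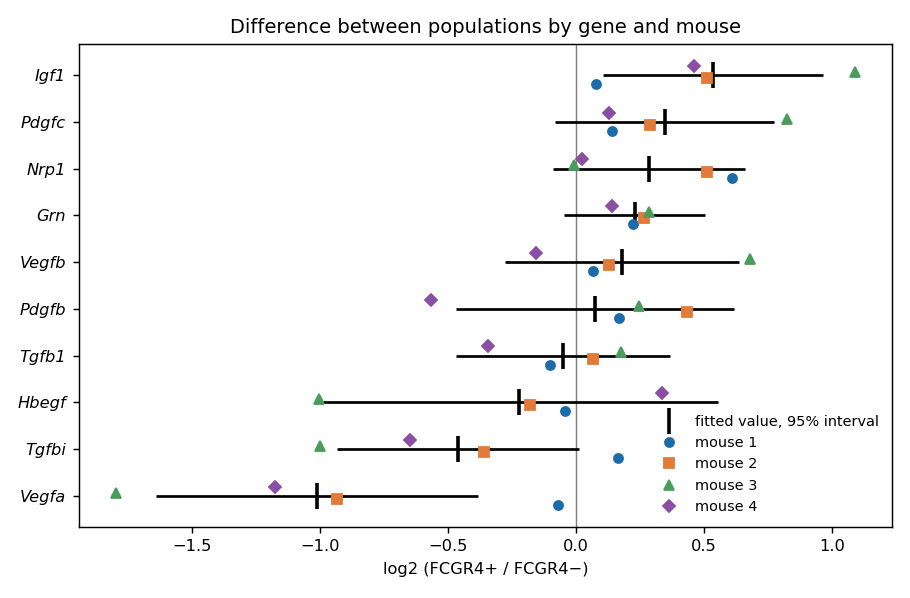
Fitted log2 fold change (FCGR4+ over FCGR4-) of the 10 genes, as a vertical mark with its 95% interval as a line, and the log2 ratio within each mouse as points. The intervals of *Vegfa* and *Igf1* do not reach 0, and mouse 3 lies farthest from 0 for both.

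**Figure D4:**
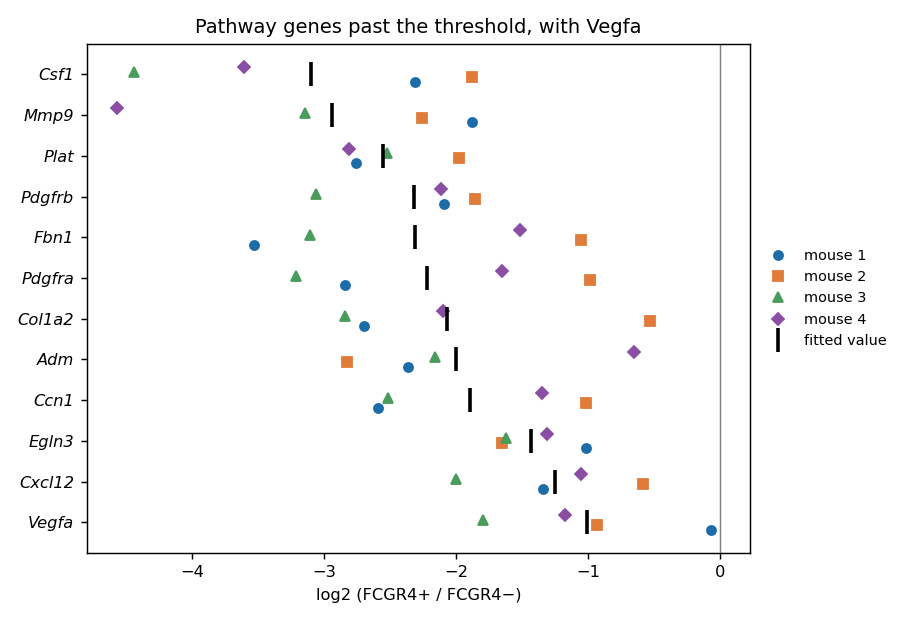
Log2 ratio of FCGR4+ to FCGR4- within each of 4 mice (points) and the fitted log2 fold change (vertical mark) for the 11 pathway genes past the threshold and for *Vegfa*, which did not pass. Every point lies below 0, and mouse 1 is close to 0 for *Vegfa*.

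The genes whose pattern over the 8 libraries was most like that of each of the 10 were found among 8084 genes with a mean of at least 10 CPM, by Pearson correlation of log2 CPM, which is a description across libraries that share mice. They were *Fnbp1l* for *Igf1* (r = 0.986), *Renbp* for *Pdgfc* (0.931), *Arrdc4* for *Vegfa* (0.984), *Tm7sf3* for *Vegfb* (0.970), *Tnfsf9* for *Tgfbi* (0.987), *P2rx4* for *Grn* (0.975), and *Smad1* for *Nrp1* (0.954). *Hbegf*, *Pdgfb*, and *Tgfb1* lay below 10 CPM and were not compared. The share of 50-base words of a transcript that occur in another gene was at most 1.95%, for *Pdgfc*, with 1 other gene. For *Grn* it was 1.72%, with 666 other genes.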

How the data were processed

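RNA-Seq counts of FCGR4+ and FCGR4- eWAT macrophages from 4 mice were used. Reads were aligned by the authors to mm10 (STAR), and read pairs were assigned to GENCODE M18 genes (featureCounts 1.6.3). The deposited table holds raw counts. Multimapping pairs were counted at each place, strand was not used, and 0 per-sample columns were left out. Gene symbols came from an Ensembl table, with 67 of 54146 rows unmatched.

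The 17095 genes that reached 10 counts in 4 or more libraries were normalized by TMM and compared by the quasi-likelihood test of edgeR 4.0.16 in R 4.3.3, mouse as block, Benjamini-Hochberg adjustment, threshold 0.1. Standard errors are the log2 fold change over the square root of F, and intervals use the test's degrees of freedom. Ratios within mice use log2 CPM and a prior count of 2. P values measure the spread between these 4 mice in the difference within a mouse, as the block takes up the level of each mouse. The test also draws the variance of each gene toward that of the other genes. Same-mouse libraries deviated together (correlations 0.291 to 0.428 against a median of -0.0615 between mice), and no libraries of 1 population were duplicates (chi-square per degree of freedom at least 83.6). DESeq2 1.42.0 was an alternative. The scripts were tested on simulated counts.

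Named genes are the 10, *Fcgr4*, and in each pathway list the called genes, the 3 highest levels per kilobase, and the 3 largest differences in 1 direction in 4 of 4 mice, and the gene most like each of the 10. Some genes under this rule are not reported here. The 10 genes and all lists were chosen with earlier results of these data known, so that nothing here is independent of them. Promoters were matched by symbol in a RefSeq table, which held 8 of the 10.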

Additional observations from a re-analysis of the deposited data

Results flagged for a closer look

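In 30 groups of 4 libraries examined (the level in each population and the ratio within mice, for each gene), 2 had a value set apart from the others, where 1.5 are expected by chance at about 1 in 20. *Tgfb1* in FCGR4+ macrophages was at 3.54 log2 CPM in mouse 3, against 3.07 to 3.15 in the others, a gap of 0.838 of the whole range. *Grn* in FCGR4+ macrophages was at 11.74 log2 CPM in mouse 2, against 11.20 to 11.24 in the others, a gap of 0.939 of the range. Mouse 2 was also highest for *Grn* in FCGR4- macrophages.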

How the results depend on the processing

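Against 217 genes past the threshold, of which 11 were in the pathway lists and 0 among the 10 genes, edgeR with no replicate block called 48 (1 in the lists), DESeq2 1024 (43, and 1 of the 10, *Vegfa*), no filter on low counts 1054 (36, and 1), the newer quasi-likelihood method 632 (30, and 1), and a threshold of 0.05 76 (4). Requiring 10 counts in every library gave 256 (22 in the lists). Each mouse left out in turn gave 81 to 140 genes (4 to 13 in the lists), mice 1 and 2 alone 115 (4), and mice 3 and 4 alone 72 (4). The split into higher and lower calls was 14 and 203, and 192 and 832 with DESeq2. The sign of *Pdgfb* turned with library size alone (-0.016), in mice 3 and 4 alone (-0.18), and without mouse 2 or mouse 3 (range with each mouse left out, -0.060 to 0.28). *Hbegf* turned without mouse 3 (range -0.42 to 0.025), as did *Vegfb* (-0.0014 to 0.29), and *Tgfb1* turned without mouse 4 (-0.14 to 0.042). *Nrp1* was at -0.013 in mice 3 and 4 alone. *Igf1*, *Pdgfc*, *Vegfa*, *Tgfbi*, and *Grn* kept their direction in every alternative that refitted the data. No filter on low counts moved the median of all genes to -0.16. For the interaction of prefix and population, other scalings and the newer method were chosen after seeing the data and also called 0 genes. The cause of these changes was not tested. *Hbegf* had the lowest count of the 10 genes, 97 in 1 library.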
